A study of Homo sapiens with 10 samples.

Results

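The genes described here are 10 members of the TGF-beta and bone morphogenetic protein (BMP) pathways, out of 33551 rows of the count table, and were taken by name. They are 5 ligand genes (TGFB1, TGFB2, INHBA, BMP2 and BMP4), the inhibitory Smads SMAD6 and SMAD7, and the BMP target genes ID1, ID2 and ID3. A549 cells, a widely used line grown from a human lung adenocarcinoma, were sequenced in 5 versions: wild type for the lipid transporter ABCA3 (WT), labelled as an ABCA3 knockout (KO), or labelled with the ABCA3 variant L101P, E292V or E690K. Each was sampled untreated and after overnight exposure, at a multiplicity of infection of 20, to a VSVG-pseudotyped lentivirus that encodes an ABCA3:GFP fusion. This gave 10 libraries, 1 for each line and treatment, so that the untreated and the transduced library of a line were the only replication a line had. Whether each line is a single clone, and how the variants were introduced, is not given in the sources used here. With 1 line for each genotype, a genotype and the other features of its line cannot be told apart.

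TGF-beta and BMP ligands bind pairs of receptor kinases at the cell surface, which phosphorylate Smad proteins. TGF-beta and activins act mainly through SMAD2 and SMAD3, and BMPs through SMAD1, SMAD5 and SMAD9. Both arms use SMAD4 as the shared partner and switch on their own inhibitors, SMAD7 and SMAD6. In lung epithelium, TGF-beta is known for driving matrix production and mesenchymal change, and the ID genes, which encode inhibitors of basic helix-loop-helix transcription factors, are the best known direct BMP targets.

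Total counts ran from 59430095 to 96811421 per library. Epithelial keratin and adhesion markers summed to 7869 to 14710 CPM, that is counts relative to the scaled total of the library. The 5 alveolar type 2 markers summed to at most 1.14 CPM, with SFTPC at 0 to 26 counts and NKX2-1 at 0 to 16 counts. These defining markers of the type were thus near 0, although the labels describe the cells as alveolar. Markers of endothelium and of blood summed to at most 1.05 and 1.01 CPM. The KO pair went against its labels: ABCA3 stood at 600.2 CPM in the library labelled untreated and 26.0 CPM in the one labelled transduced, and the EGFP row at 37.9 and 0.0497 CPM. KO below stands for these 2 libraries as labelled. The members' tests and the counts over the pathway lists were repeated with these labels exchanged and, where the comparison did not need the pair, without it. In the other 4 lines the EGFP row was higher in the transduced library, but the untreated libraries also held 1.00 to 69.7 CPM of it. In E690K the 2 libraries hardly differed, at 16.5 CPM untreated and 18.5 CPM transduced. Untreated WT, at 69.7 CPM, stood above transduced L101P (36.9), E292V (66.0) and E690K, and below only transduced WT (150.9). The EGFP row thus does not separate treated from untreated libraries across lines. ABCA3, untreated and then transduced, stood at 355.8 and 602.1 CPM in WT and at 1151 and 921.9 in L101P. It stood at 964.8 and 1021 CPM in E292V and at 900.2 and 993.8 in E690K. ABCA3 was thus lower in the transduced library of L101P and does not separate the treatments across lines either.

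Of the members called for a difference among lines below, TGFB1 is not shown here. SMAD6 was not called among lines, only in pairs with E292V. The promoters shown are those of ID1 and ID2, of SMAD6, and of ID3 as the ID gene that passed no test. Each runs from 250 bases before to 50 bases after the RefSeq start on GRCh38.p14, read in the direction of the gene: ID1 on chr20:31605039-31605338 (plus strand), ID2 on chr2:8681806-8682105 (plus), ID3 on chr1:23559452-23559751 (minus) and SMAD6 on chr15:66701986-66702285 (plus). Capitals mark matches, on either strand, to the Smad box CAGAC, the GC-rich Smad site GGCGCC, the palindromic Smad site GTCTAGAC, the CCAAT box CCAAT and the TATA box TATAAA.
ID1: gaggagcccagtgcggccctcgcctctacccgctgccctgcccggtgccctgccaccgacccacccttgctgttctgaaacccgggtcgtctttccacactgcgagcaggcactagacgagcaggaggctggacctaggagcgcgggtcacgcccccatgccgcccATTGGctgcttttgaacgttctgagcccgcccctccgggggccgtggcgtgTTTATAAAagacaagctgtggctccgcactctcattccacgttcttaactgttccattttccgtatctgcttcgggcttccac
ID2: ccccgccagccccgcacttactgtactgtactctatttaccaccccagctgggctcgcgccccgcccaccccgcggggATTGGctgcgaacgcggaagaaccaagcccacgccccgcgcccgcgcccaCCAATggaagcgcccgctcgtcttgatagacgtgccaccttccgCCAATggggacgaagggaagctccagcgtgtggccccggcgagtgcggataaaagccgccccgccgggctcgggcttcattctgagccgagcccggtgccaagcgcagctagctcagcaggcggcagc
ID3: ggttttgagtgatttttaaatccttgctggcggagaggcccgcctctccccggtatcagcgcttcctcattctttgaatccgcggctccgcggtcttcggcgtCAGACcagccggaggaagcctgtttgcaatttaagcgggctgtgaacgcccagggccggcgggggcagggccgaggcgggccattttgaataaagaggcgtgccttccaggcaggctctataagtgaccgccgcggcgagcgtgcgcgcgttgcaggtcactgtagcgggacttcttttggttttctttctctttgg
SMAD6: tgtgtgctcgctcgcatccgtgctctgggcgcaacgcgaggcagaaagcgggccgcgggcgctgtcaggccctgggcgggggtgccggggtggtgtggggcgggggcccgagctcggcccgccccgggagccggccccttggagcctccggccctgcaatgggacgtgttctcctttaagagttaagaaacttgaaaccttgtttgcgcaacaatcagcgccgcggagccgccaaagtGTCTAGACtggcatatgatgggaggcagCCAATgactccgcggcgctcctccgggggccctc

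SMAD6 held the palindrome GTCTAGAC just upstream of its start, a match that 0.202% of the 35116 promoters in the table had. The only Smad box in these 4 windows was in ID3, and 45.3% of all promoters held one. ID1, ID2 and SMAD6 held CCAAT boxes (34.6% of promoters), 1 in ID1, 3 in ID2 and 1 in SMAD6. ID1 alone of the 4 had TATAAA (11.5%), read on both strands of 1 stretch and sharing 4 bases between the reads. No other pair of matches in these windows overlapped. The E-box CANNTG, in 68.7% of promoters and left in lower case, occurred in ID2 and SMAD6. Of the 10 members, 9 had an entry in the table, 5 of them with a CAGAC and 1, BMP4, with a GGCGCC (19.2% of promoters). Of these, 2 members, BMP4 and SMAD7, had several windows and were counted if any window matched. The shares of promoters count single windows, so the 2 measures are not alike. A match says only that these letters occur in the window.

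Per length of all annotated exons of a gene joined, ID1 and ID3 were the most abundant members and BMP2 and INHBA the scarcest. On the scale of normalised CPM per kilobase of exon, the median over the 10 libraries was 239.8 for ID1, 148.2 for ID3, 57.5 for TGFB1 and 34.0 for ID2. SMAD6 followed at 16.97, TGFB2 at 11.9, SMAD7 at 7.47 and BMP4 at 5.76. BMP2, at 0.0671, was barely detected, and INHBA, which encodes the activin A subunit, had 2 counts in the library labelled KO untreated and 0 in the other 9. For INHBA the floor of 3 counts lay at 0.0312 to 0.0503 CPM, and no fold or test is given. The other 9 members entered the test. The highest library stood above the lowest by 1.26-fold for ID3 and for SMAD6, and by 1.99-fold for ID2, so most of the set moved within a narrow range.

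**Figure D1:**
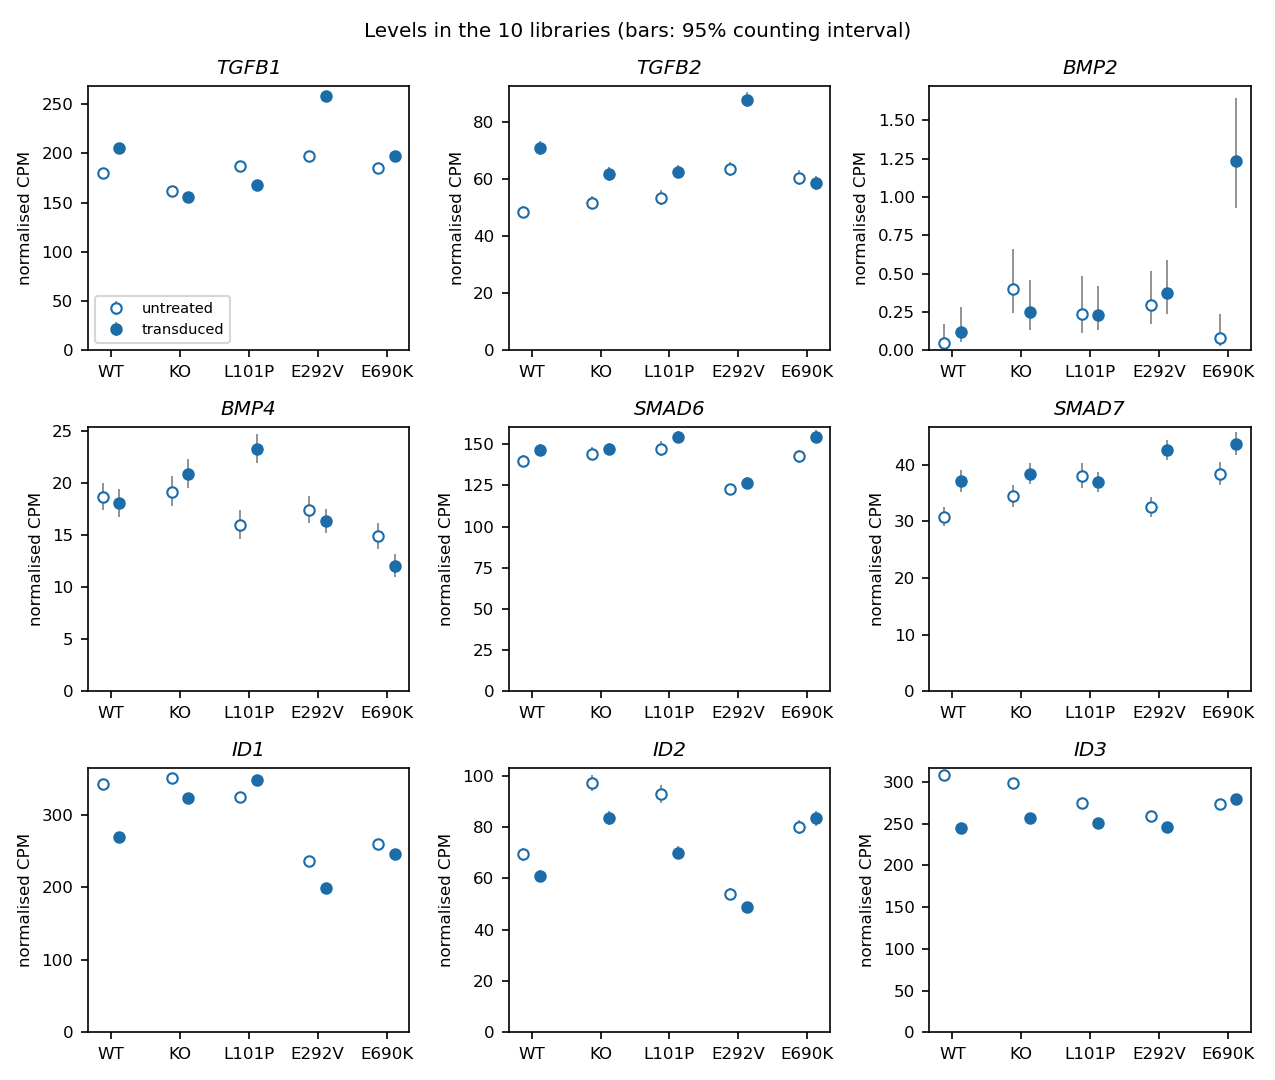
Normalised CPM (y axis, linear from 0) of 9 members in each of the 5 lines (x axis), with open points for untreated and filled points for transduced libraries and bars for 95% Wilson intervals of counting error. ID1, ID2 and SMAD6 were lowest in the 2 E292V libraries, and BMP2 stood out in the transduced E690K library at 1.24 CPM.

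The first question was whether the members differed among the lines. ID1 and ID2 did most clearly, with the E292V line lowest for both, and TGFB1 passed the threshold narrowly with E292V highest. Of the 9 members tested, 3 were called for a difference among the 5 lines by edgeR's quasi-likelihood test (adjusted p under 0.05), against 13.0% of the 17978 genes tested. The members' median span between the lowest and the highest line was 0.52 on the log2 scale, against 0.43 over all genes tested. The p-values set the differences between lines against the departure of a line's 2 libraries from the shared vector effect. That departure may be technical, and the p-values describe these lines rather than the genotypes.

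ID1 (chromosome 20, 31605283 to 31606515, GENCODE 29 on GRCh38) stood at 342.9 CPM in untreated WT and 269 in transduced WT, and, in the same order, at 350.2 and 322.3 in those labelled KO, and 324.7 and 347.5 in L101P. It stood at 236.8 and 198.6 CPM in E292V, and at 259 and 245.9 in E690K. Both E292V libraries lay below the other 8, and both E690K libraries lay below all those of the 3 remaining lines. The line means were 217.7 ± 27.0 CPM (SD, n = 2) in E292V and 336.1 ± 16.1 (SD, n = 2) in L101P. The span between these lines was 0.64 on the log2 scale, or 1.55-fold (edgeR adjusted p = 0.00238). Without the E292V pair the span was 0.42 and no longer passed (adjusted p = 0.0630).

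ID2 (chromosome 2, 8678845 to 8684453) stood at 69.4 and 61.0 CPM in WT, 97.1 and 83.5 in the libraries labelled KO, and 92.7 and 70.1 in L101P. It stood at 54.0 and 48.8 CPM in E292V, and 80.0 and 83.3 in E690K. Both E292V libraries were again below the other 8, and the WT pair came next above them. The span from the E292V mean of 51.4 ± 3.68 CPM (SD, n = 2) to the KO mean of 90.3 ± 9.63 (SD, n = 2) was 0.81 on the log2 scale, or 1.75-fold (edgeR adjusted p = 8.85e-04). Without the E292V pair it was 0.48 (adjusted p = 0.0655). ID2 shares 38 exon bases with its antisense neighbour ID2-AS1, and the use of strand in the counting is not given in the sources used here.

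ID3, the remaining ID gene (chromosome 1, 23557918 to 23559794), showed no called difference among lines. Its line mean was lowest in E292V too, at 252.2 CPM. Its level ran from 244.6 to 307.6 CPM, both ends being WT libraries. The lines overlapped, and the span of line means was 0.14 on the log2 scale (edgeR adjusted p = 0.686).

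TGFB1 encodes the main TGF-beta ligand (chromosome 19, 41301587 to 41353911). It stood at 180.3 and 205.5 CPM in WT, 161.4 and 155.5 in the libraries labelled KO, and 187.5 and 168.1 in L101P. In E292V it stood at 197.5 and 258 CPM, and in E690K at 185.1 and 196.7. Both libraries labelled KO were below the other 8, as for 2.65% of all genes tested, whereas for E292V only the transduced one stood above all others. The span from KO to E292V was 0.52 on the log2 scale (edgeR adjusted p = 0.0472). This call was lost in 10 of 21 alternatives. Among them were the exchange of the KO labels (adjusted p = 0.0646) and the fits without the KO untreated (0.0862), KO transduced (0.224), E292V transduced (0.196), E690K untreated (0.106) or E690K transduced library (0.110), and without the KO, E292V or E690K pair (0.0870 to 0.243). TGFB1 also shares 215 exon bases with HNRNPUL1 on the opposite strand.

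TGFB2, the second TGF-beta ligand gene of the set (chromosome 1, 218346235 to 218444619), stood at 48.2 and 70.7 CPM in WT, 51.5 and 61.7 in KO, 53.4 and 62.4 in L101P, 63.3 and 87.5 in E292V, and 60.4 and 58.6 in E690K. The transduced E292V library was the highest and the untreated WT library the lowest. The line span of 0.40 on the log2 scale was not called (edgeR adjusted p = 0.128). A further 1371 of its exon bases are annotated as TGFB2-OT1 on the same strand, which has no row in the table.

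SMAD6, the inhibitory Smad of the BMP arm (chromosome 15, 66702228 to 66782848), was the steadiest member besides ID3. It stood at 122.6 and 126.5 CPM in E292V and between 139.9 and 154.4 CPM in the other 8 libraries. The groups did not overlap, and the gap was larger than the difference between the 2 libraries of any line. The line span was 0.27 on the log2 scale and was not called (edgeR adjusted p = 0.0735). Over all genes tested, 8.14% had both E292V libraries below the other 8; of the members these were SMAD6, ID1 and ID2.

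SMAD7, the inhibitory Smad that TGF-beta induces (chromosome 18, 48919853 to 48952052), ran from 30.9 CPM in untreated WT to 43.7 CPM in transduced E690K. The lines overlapped, with a span of 0.28 on the log2 scale (edgeR adjusted p = 0.423). BMP4 (chromosome 14, 53949736 to 53958761) was lowest in both E690K libraries, at 14.91 and 12.03 CPM, and stood between 16.0 and 23.3 CPM in the other 8. Of all genes tested, 4.73% had both E690K libraries lowest. The BMP4 span was 0.57 on the log2 scale (edgeR adjusted p = 0.138).

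BMP2 (chromosome 20, 6767664 to 6780280) rested on few reads. Its counts were 4 and 10 in WT, 30 and 20 in KO, 14 and 22 in L101P, 24 and 36 in E292V, and 6 and 94 in E690K. The transduced E690K library, at 1.24 CPM (95% Wilson interval 0.929 to 1.64), stood above the other 9, whose highest value was 0.400. No line difference was called (span 2.73 on the log2 scale, edgeR adjusted p = 0.416).

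In the order of line means, no member differed between 2 neighbouring lines by the same test. For ID1 the order from low to high was E292V, E690K, WT, KO and L101P. For ID2 it was E292V, WT, L101P, E690K and KO, and for SMAD6 it was E292V, WT, KO, E690K and L101P. TGFB1 ran from KO through L101P, E690K and WT to E292V. E292V thus stood at the opposite end from its place for ID1, ID2 and SMAD6, and for ID3, where it was also lowest.

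Each line was then set against WT. The 4 contrasts share the WT libraries and are given side by side. In KO, 1 member of 9 was called (1.80% of all genes tested): ID2 was higher by 0.47 on the log2 scale (SE 0.097, edgeR adjusted p = 0.0321). In E292V, 1 was called (1.05% of genes): ID1 was lower, by -0.49 (SE 0.096, edgeR adjusted p = 0.0318). For L101P no member was called by edgeR (3.94% of genes), 1 had an unadjusted p under 0.05 (18.3% of genes), and DESeq2 called 1, ID2, among 1185 genes. For E690K none was called by edgeR (5.38% of genes), 5 had an unadjusted p under 0.05 (19.3% of genes), and DESeq2 called ID2 among 1420 genes. The ID2 difference from WT was thus 0.47 in KO, 0.31 in L101P (edgeR adjusted p = 0.0996), 0.33 in E690K (0.0700) and -0.34 in E292V (0.161).

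The ID2 call in KO was lost with the KO labels exchanged (edgeR adjusted p = 0.106) and without the WT untreated (0.138), WT transduced (0.140), KO untreated (0.189) or KO transduced library (0.282). The ID1 call in E292V was lost with the KO labels exchanged (0.0909), without the WT untreated (0.405) or E292V transduced library (0.370), and without any 1 of the KO and E690K libraries (0.0534 to 0.0673).

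**Figure D2:**
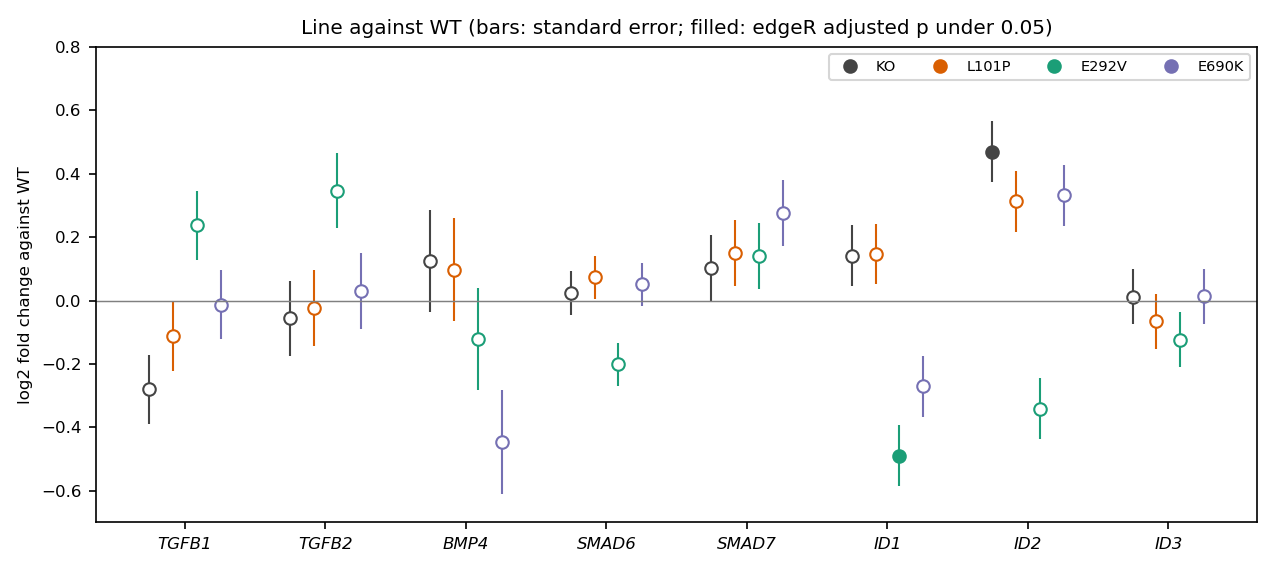
Log2 fold change against WT (y axis) of 8 members (x axis) in the KO, L101P, E292V and E690K lines, with bars for the standard error and filled points for an edgeR adjusted p under 0.05. ID2 in KO (0.47) and ID1 in E292V (-0.49) are the filled points. E292V lies on the other side of 0 from the remaining lines for TGFB1, ID2 and SMAD6, though E690K is at only -0.01 for TGFB1.

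The members called between the lines other than WT by edgeR all came from pairs that included E292V. KO and E292V differed in 4 of 9 members (10.7% of all genes tested). In KO, ID1 was higher by 0.63 (SE 0.096, edgeR adjusted p = 0.00140) and ID2 by 0.81 (SE 0.097, adjusted p = 3.75e-04). TGFB1 was lower, by -0.52 (SE 0.108, adjusted p = 0.00904), and TGFB2 by -0.40 (SE 0.119, adjusted p = 0.0480). ID1 and ID2 thus differed between these lines in the opposite direction to TGFB1 and TGFB2. ID3 was at 0.14 (adjusted p = 0.388).

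L101P and E292V differed in 3 members (13.8% of genes): ID1 was higher in L101P by 0.64 (edgeR adjusted p = 0.00102), ID2 by 0.65 (8.98e-04) and SMAD6 by 0.27 (0.0177). The ligands had the same sign as in KO but were not called, with TGFB1 at -0.35 (adjusted p = 0.0501) and TGFB2 at -0.37 (0.0586). E292V and E690K differed in 2 (10.4% of genes), with SMAD6 at -0.25 (edgeR adjusted p = 0.0329) and ID2 at -0.67 (8.30e-04) in E292V. These 3 contrasts share the E292V libraries. The ID1 calls against KO and L101P and the ID2 calls against KO, L101P and E690K held in each of the 19 alternatives run for them.

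The other calls of these pairs were less stable. TGFB1 against KO was lost without the KO transduced (edgeR adjusted p = 0.174) or the E292V transduced library (0.180). TGFB2 against KO was lost with the KO labels exchanged (0.173) and without the KO untreated (0.188), KO transduced (0.300) or E292V transduced library (0.423). SMAD6 against L101P was lost without either E292V library (0.0851 and 0.189), and SMAD6 against E690K with the KO labels exchanged (0.0603) and without any 1 of the KO, E292V and E690K libraries (0.0779 to 0.280).

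Among KO, L101P and E690K no member was called by edgeR. KO and L101P differed at 0.139% of all genes tested. No member had an unadjusted p under 0.05 (5.61% of genes), and DESeq2 called none among 80 genes. KO and E690K differed at 1.64% of genes. Here 3 members had an unadjusted p under 0.05 (12.9% of genes), and DESeq2 called 2, BMP4 and ID1, among 605 genes. L101P and E690K differed at 0.690% of genes. Here 2 members had an unadjusted p under 0.05 (10.7% of genes), and DESeq2 called 1, ID1, among 398 genes. ID1 was the nearest to a call, at 0.41 in KO over E690K (edgeR adjusted p = 0.0556) and 0.42 in L101P over E690K (0.0792).

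The study's title sets type 1 against type 2 variants, and L101P is known as a type 1 (trafficking) variant and E292V and E690K as type 2 (transport) variants. Against the mean of E292V and E690K, 2 members were called in L101P (5.79% of all genes tested). ID1 was higher by 0.53 (SE 0.082, edgeR adjusted p = 0.00343), and all 4 type 2 libraries, at 198.6 to 259 CPM, lay below both L101P libraries. That call held in the 18 alternatives run for it. ID2 was higher by 0.32 (SE 0.083, adjusted p = 0.0436), but its E690K libraries, at 80.0 and 83.3 CPM, lay between those of L101P, at 92.7 and 70.1. The ID2 call was lost in 10 of 18 alternatives, among them the exchange of the KO labels (adjusted p = 0.127) and the fits without the L101P untreated (0.246), E690K untreated (0.169), E292V untreated (0.0851), E292V transduced (0.0886), KO untreated (0.0717) or KO transduced library (0.0712). With 1 type 1 line, type and line cannot be told apart.

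The second question was whether the lentiviral vector moved these genes. No member passed the test, and TGFB2 came nearest. Its transduced library was higher in WT (by 0.55 on the log2 scale), KO (0.26), L101P (0.22) and E292V (0.47), and at -0.05 in E690K. Over the 5 lines, the fitted change was 0.29 (SE 0.075, unadjusted p = 0.00205, edgeR adjusted p = 0.334). edgeR called 0% of the 17978 genes for the vector. Unadjusted, 1236 genes and 5 of the 9 members had p under 0.05, and DESeq2 called 0.458% of genes, 111 in number, with TGFB2 (DESeq2 adjusted p = 0.0329) as the 1 member among them.

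The other 4 members with an unadjusted p under 0.05 were SMAD7, at 0.19 (edgeR adjusted p = 0.541), ID2 at -0.18 (0.541), ID3 at -0.15 (0.609) and ID1 at -0.14 (0.681). The transduced library was the lower one in 4 of 5 lines for each ID gene, and the exception was L101P for ID1 and E690K for ID2 and ID3. Without the KO pair it was 3 of 4 lines for each, and with the KO labels exchanged 3 of 5. For SMAD6 the transduced library was the higher in each of the 5 lines, by 0.03 to 0.12, as for 4.29% of all genes tested (edgeR adjusted p = 0.852). Without KO it was higher in 4 of 4 lines, as for 6.76% of genes, and with the KO labels exchanged in 4 of 5. With the KO labels exchanged, the fitted change of TGFB2 was 0.19, with SMAD6 at 0.05, SMAD7 at 0.13, ID1 at -0.09, ID2 at -0.09 and ID3 at -0.06, and no member had an unadjusted p under 0.05. Without the KO pair, TGFB2 was at 0.30 (edgeR adjusted p = 0.811). TGFB2 passed edgeR's threshold without the L101P untreated (adjusted p = 0.0273) or the L101P transduced library (0.0279), and with no filter on low counts (0.00415).

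**Figure D3:**
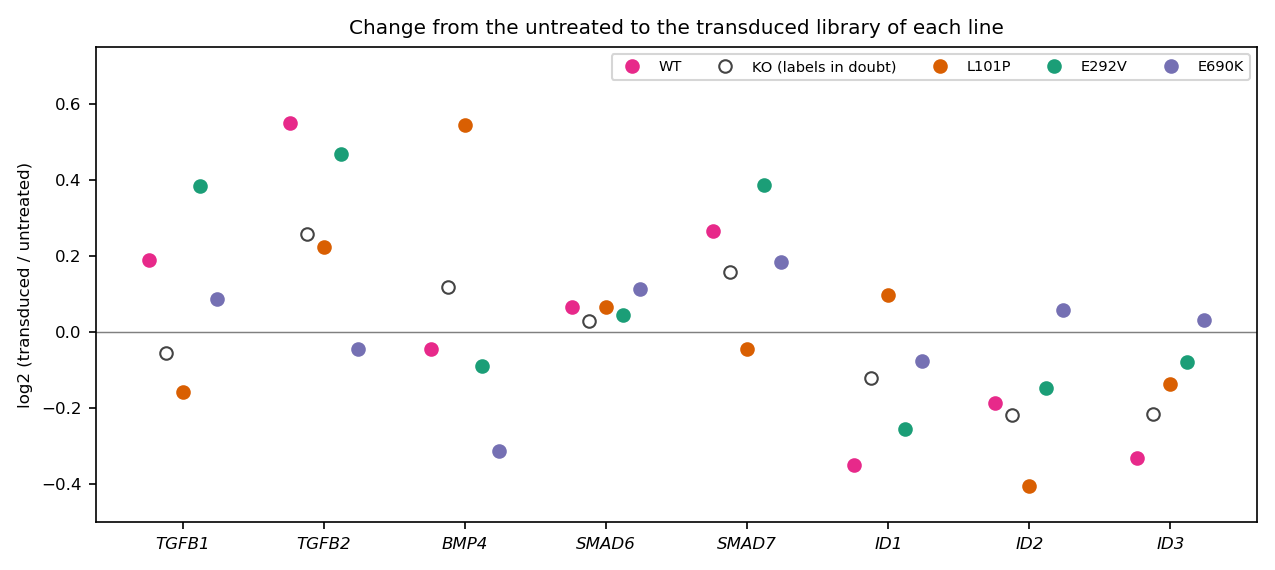
Log2 ratio of the transduced to the untreated library (y axis) of 8 members (x axis), 1 point for each line, with open points for the KO pair, whose ABCA3 and EGFP levels went against its labels. TGFB2 and SMAD7 lie above 0 in 4 of 5 lines, and ID1, ID2 and ID3 below 0 in 4 of 5. With the KO labels exchanged each of these counts is 3 of 5.

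BMP4 and BMP2 had their largest changes in single lines. BMP4 was higher in the transduced L101P library by 0.55 and at -0.31 in E690K. BMP2 went from 6 to 94 counts in E690K, a ratio of 15.4 in normalised CPM, with 95% intervals of 0.0273 to 0.236 and 0.929 to 1.64 CPM that cover counting error only. A single library on each side gives no test of such a change within a line. A different vector response in WT than in the other 4 lines was tested as an interaction. edgeR called none of the 19236 genes of that fit (0%), 608 genes and no member had an unadjusted p under 0.05, and DESeq2 called none.

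The rest of the pathway was read from 85 further genes in 7 lists, 74 of which were tested. The difference among lines was called for 35 of the 74 (47.3%, against 13.0% of all genes tested) by edgeR. It was called for 4 of 15 other ligands, 3 of 13 receptors, 1 of 6 signal-carrying Smads, 12 of 18 ligand traps and latency proteins, 5 of 8 intracellular inhibitors, 7 of 9 other TGF-beta targets and 3 of 5 other BMP targets. The count fell to 21 with the KO labels exchanged (9.48% of genes), 26 without the KO pair (9.45%) and 24 without the transduced E292V library (7.44%). The vector effect was called for none of the 74 by edgeR (0% of all genes tested). Of the 74, 21 had an unadjusted p under 0.05 (6.88% of genes), and DESeq2 called 6 (0.458% of genes). With the KO labels exchanged edgeR again called none. The genes with an unadjusted p under 0.05 then fell from 1236 to 497, and those among the 74 were not counted.

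Receptors for both arms were present. The mean level of the 13 receptor genes ran from 0.0910 CPM (ACVR1C) to 341.7 CPM (TGFBR2), and that of the 6 signal-carrying Smads from 0.225 CPM (SMAD9) to 456.3 CPM (SMAD3). The 3 receptor genes called among lines were TGFBR1, TGFBR2 and TGFBR3, the kinases and the co-receptor that bind TGF-beta, named here after their values were seen. In E292V they were lower than in each of KO, L101P and E690K, but 0 of the 13 receptors were called between E292V and WT. TGFBR1 was as low in WT, at 68.6 and 77.3 CPM, as in E292V, at 71.4 and 80.0 CPM. It was called higher than in WT in L101P (0.45) and E690K (0.48). Against KO, the TGFBR1 call was lost with the KO labels exchanged (edgeR adjusted p = 0.0657) and without either E292V library (0.106 and 0.242), and those of TGFBR2 and TGFBR3 without the transduced E292V library (0.233 and 0.240). TGFBR2 was at 269.2 and 247.5 CPM in E292V and between 294.2 and 496.1 CPM elsewhere, and L101P exceeded E292V by 0.74 on the log2 scale (SE 0.111, edgeR adjusted p = 9.52e-04). SMAD2 was also lower in E292V than in L101P (L101P minus E292V 0.44, adjusted p = 0.00900) and E690K (E292V minus E690K -0.51, adjusted p = 0.00438).

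The list of other TGF-beta targets ran the other way. Of the 9 tested, 6 were lower in KO than in E292V (4.77% of all genes tested were) and 6 lower in L101P than in E292V (5.61%), and 5 were higher in E292V than in E690K (4.42%). None of the 9 was called in the opposite direction in these 3 contrasts, which share the E292V libraries. PMEPA1, which TGF-beta also induces but which stood in the list of inhibitors, went the other way: it was higher in L101P than in E292V by 0.50 (edgeR adjusted p = 0.00248), and E292V minus E690K was -0.81 (1.26e-04). The medians over the list were -0.88, -0.49 and 0.48 on the log2 scale, against -0.01, -0.02 and 0.02 over all genes tested. Without the transduced E292V library the 3 counts were 4, 2 and 2, with 3.08%, 4.30% and 3.61% of all genes called in either direction. With the KO labels exchanged they were 5, 5 and 4, with 8.62%, 11.2% and 8.09% of genes called.

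TAGLN, which encodes the actin-binding protein transgelin, stood at 17.5 and 22.3 CPM in E292V and between 2.25 and 7.90 CPM in the other 8 libraries. Against WT, TAGLN was higher in E292V by 1.62 (SE 0.211, edgeR adjusted p = 0.00717) and lower in KO (-1.26, adjusted p = 0.0140), L101P (-1.29, adjusted p = 0.00882) and E690K (-0.87, adjusted p = 0.0359). Without the transduced E292V library the TAGLN difference between E292V and WT was 1.47 (adjusted p = 0.0546).

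COL1A1, a collagen chain, stood at 72.3 and 116.5 CPM in E292V against 14.2 to 44.9 in the other 8 libraries, and was higher than in WT by 1.42 (SE 0.259, edgeR adjusted p = 0.0214). Without the transduced E292V library that difference was 1.12 and not called (adjusted p = 0.220). COL1A1 is also a fibroblast marker. The 5 fibroblast markers summed to 16.4 to 119.3 CPM, nearly all of it COL1A1, while COL3A1 stood at 0 to 34 counts, PDGFRB at 0 to 39, DCN at 0 to 18 and LUM at 94 to 320. LUM was thus present in every library, at 1.58 to 4.05 CPM, and the part of other cells in the COL1A1 difference was not tested.

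ID4, the ID gene outside the set, was likewise lowest in E292V, whereas the 2 further BMP targets called among lines were not. ATOH8 was lowest in E690K, at 5.75 and 4.34 CPM against 5.96 to 10.8 elsewhere, and MSX1 was highest in the transduced E292V library, at 7.10 CPM. ID4 stood at 4.90 and 2.37 CPM in E292V and between 5.35 and 10.4 CPM in the other 8 libraries. L101P exceeded E292V by 1.26 on the log2 scale (SE 0.227, edgeR adjusted p = 0.00293), KO by 1.06 (adjusted p = 0.0102) and E690K by a like amount (E292V minus E690K -1.26, adjusted p = 0.00369). Without the transduced E292V library, the difference from L101P was 0.95 (adjusted p = 0.0414) and those from KO and E690K were lost (adjusted p = 0.148 and 0.0547). ID4 was named after its values were seen.

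**Figure D4:**
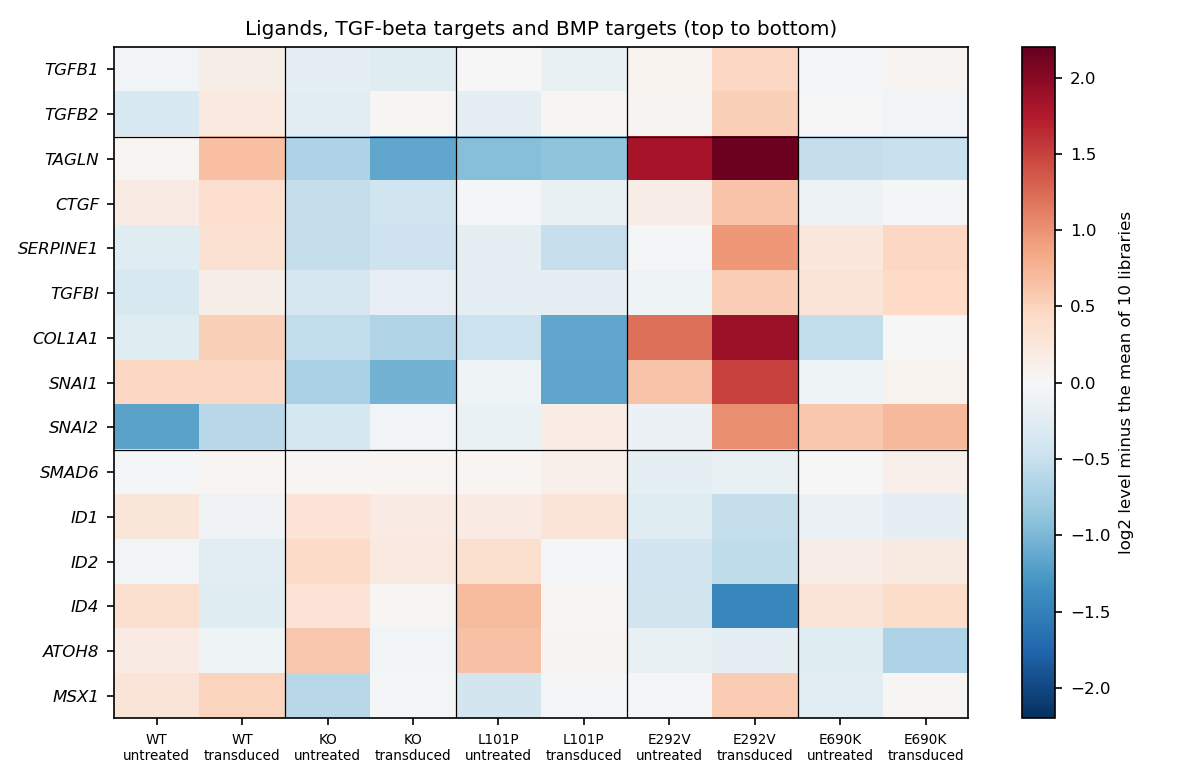
Log2 level of the ligands TGFB1 and TGFB2, the 7 other TGF-beta targets called among lines, and SMAD6, ID1 and ID2 with the 3 other BMP targets called among lines (rows, top to bottom), minus each gene's mean over the 10 libraries (columns), on a colour scale from blue (lower) to red (higher). In the transduced E292V library TAGLN (2.16) and COL1A1 (1.90) are at their highest, and ID1 (-0.52), ID2 (-0.57) and ID4 (-1.44) at their lowest.

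Against WT, the pathway calls were 4 of 74 in KO (2 higher, 2 lower, with 1.80% of all genes called), 9 in L101P (6 higher, 3 lower, 3.94%), 2 in E292V (both higher, TAGLN and COL1A1, 1.05%) and 18 in E690K (14 higher, 4 lower, 5.38%). With the KO labels exchanged these counts were 2, 6, 2 and 14, with 0.790%, 2.04%, 0.584% and 3.33% of genes called. Without the transduced E292V library they were 8, 14, 0 and 19 (2.44%, 4.39%, 0.0945% and 5.65%). DESeq2 gave 10, 14, 11 and 19 (2.95%, 4.89%, 1.70% and 5.86%). Of the 18 in E690K, 7 were ligand traps and latency proteins, 6 of them higher. BMPER, which binds BMPs outside the cell, was higher by 2.01 (SE 0.339, edgeR adjusted p = 0.00490), at 2.92 and 4.02 CPM against 0.480 to 1.37 in the other 8 libraries. FST, which encodes the activin trap follistatin, was higher by 1.88 (SE 0.253, adjusted p = 0.00117), at 15.7 and 16.1 CPM against 3.95 to 8.96.

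Further calls fell on other ligands and inhibitors. BMP6, a BMP ligand, was higher than in WT in KO by 0.59 (edgeR adjusted p = 0.0389), in L101P by 0.59 (0.0239) and in E690K by 0.60 (0.0166). It was not called in E292V, but at 12.9 and 13.7 CPM it also stood there above WT, at 9.79 and 8.57 CPM. PMEPA1, an inhibitor that TGF-beta induces, was higher in KO by 0.42 (0.0336), in L101P by 0.68 (0.00180) and in E690K by 1.00 (8.49e-05). INHBB, which encodes the activin B subunit, was lower in E292V than in KO (KO minus E292V 1.00, 5.01e-04), L101P (L101P minus E292V 0.94, 4.86e-04) and E690K (E292V minus E690K -0.58, 0.0114), the opposite direction to TGFB1 and TGFB2, and was named after its values were seen. GDF15, a divergent stress-induced member of the superfamily, was lower than in WT in L101P (-1.09, 0.00168) and in E690K (-1.30, 2.80e-04). CTGF, a matricellular target, was lower in KO (-0.76, 0.00954). With the KO labels exchanged, the KO calls of BMP6 (edgeR adjusted p = 0.0669) and PMEPA1 (0.248) were lost, and CTGF kept its call (0.0249).

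For the 3 members called among lines, the genes with the most similar pattern over the 10 libraries were sought among 11913 genes by Pearson's r of log2 CPM. For ID1 they were TNFRSF1A (r = 0.984) and AKR1C3 (0.977), for ID2 GRB14 (0.978) and FZD9 (0.955), and for TGFB1 KCNG1 (0.979) and NAV1 (0.975). AKR1C3 stood at 1128 and 833.9 CPM in E292V and at 1188 to 1929 CPM in the other 8 libraries. NAV1 stood at 72.4 CPM in the transduced E292V library and at 17.4 to 46.3 in the other 9. The 10 points share 5 lines and a scaling, and the values are a description.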

How the data were processed

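RNA was sequenced from 10 A549 libraries, 5 lines each untreated and transduced, with a total-RNA kit per the labels. The authors deposited whole-number counts per gene in 1 table. The submitters' processing notes name featureCounts, Subread, edgeR, limma and GRCh38, without roles. The use of strand is not given in the sources used here. Of the counts from 1 to 10, 81.4% were even, as when both mates are counted, so 95% Wilson intervals were taken on count divided by 2. The intervals and the floor of 3 counts cover counting error only. Coordinates and exon lengths come from GENCODE 29 on GRCh38, in which 98.7% of row names matched, and promoters from RefSeq on GRCh38.p14.

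Counts were fitted with edgeR 4.0.16 (R 4.3.3) on 17978 genes kept by filterByExpr, with TMM scaling (factors 0.972 to 1.03), in 1 additive model of line and vector with 4 residual degrees of freedom. Libraries were paired by line, as the labels give it. The quasi-likelihood test gave all contrasts and Benjamini-Hochberg adjusted p-values over all genes, called under 0.05. Normalised CPM uses the scaled library sizes. The interaction was fitted on 19236 genes with 3 residual degrees of freedom. DESeq2 1.42.0, other scaling and filters, each library or pair left out, exchanged KO labels and a design of line alone were alternatives. The alternatives for the pathway lists were added after seeing the data. Scripts were tested on simulated data.

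All 10 members are named. From the pathway lists, at most 2 higher and 2 lower genes, those with the widest called changes, in each contrast with WT are named, with the receptors and Smads as ranges; and for likeness the 2 genes with the highest r among those with a mean log2 CPM of at least 1. TGFBR1, TGFBR2, TGFBR3, SMAD2, INHBB, ID4, ATOH8 and MSX1, and PMEPA1 and BMP6 outside that rule, were named after their values were seen. The members, lists and motifs were chosen with earlier results of these data known.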

Additional observations from a re-analysis of the deposited data

Results flagged for a closer look

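SMAD6 in the E292V line stood apart from the other 4 lines in both treatments. On the log2 CPM scale it was at 6.94 in the untreated E292V library, where the nearest line was at 7.13, and the gap took 0.724 of the whole range. In the transduced E292V library it was at 6.98, where the nearest was at 7.195, and the gap took 0.737 of the range. Both shares exceeded Dixon's 95% limit for 5 samples. Of 27 such sets of 5 lines, 2 held a value this far from the others, and chance gives about 1 in 20.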

How the results depend on the processing

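The counts of called members depended on the filter, the tool and the libraries, and the counts over all genes moved with them. For the other pairs of lines, that is those without WT, the counts are calls summed over the pairs. A member or a gene can count in several pairs there. Without a filter on low counts, edgeR called 5 members among lines in place of 3, 1 in L101P against WT in place of 0, 3 in E292V in place of 1, 4 in E690K in place of 0, 16 over the other pairs of lines in place of 9, and 1 for the vector in place of 0. Over all genes the same setting called 3661 among lines (2337 before), 1437 in L101P (709), 662 in E292V (189), 1659 in E690K (967), 9637 over the other pairs and 237 for the vector (0). DESeq2 called 6 among lines, 1 in L101P, 1 in E690K, 15 over the other pairs and 1 for the vector, among 3379, 1185, 1420, 8551 and 111 genes. With the KO labels exchanged, or with line alone in the design, the counts against WT were 0 in KO and 0 in E292V, in place of 1 each, and 1 rather than 2 for L101P against the type 2 lines. Over all genes these 3 contrasts called 142, 105 and 731 with the labels exchanged and 165, 130 and 861 with line alone (323, 189 and 1041 before). Leaving out 1 library or 1 pair gave 0 to 6 members among lines, 0 to 2 in KO, 0 to 1 in L101P, 0 to 3 in E292V, 0 to 4 in E690K, 6 to 20 over the other pairs, 1 to 3 for L101P against the type 2 lines, 0 to 1 for the vector and 0 to 0 for the interaction. Over all genes, among lines, the fit without the E292V pair called 931, with 0 members, and that without the L101P pair 3731, with 6 members. Against WT, the fits without 1 pair called 147 to 1120 genes in KO and 367 to 732 in L101P. They called 57 to 689 in E292V and 639 to 1993 in E690K. The cause was not tested. Where 1 library was left out, the remaining one of that line was assumed to vary like the others. No WT library could be left out of the interaction. With no replicate block for line, the vector effect was called for 0 members and TGFB2 was at 0.30 (edgeR adjusted p = 1.00). No direction reversed among the 21 members' results for which alternatives were run, which are the called ones and 5 vector effects. CPM from library totals stayed within the counting interval for 88 of 100 levels, and moved no level by more than 1.03-fold. Among the members, depth limited the values of BMP2 and INHBA most.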
